A study of Mus musculus with 6 samples.

Results

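The genes described here are 10 transcripts that mark natural killer (NK) cells and related innate lymphoid cells: Klrk1, Klrb1c, Ncr1, Il2rb, Eomes, Gzma, Gzmb, Prf1, Nkg7 and Ccl5. They were taken by symbol from the deposited table, and all 10 of the 10 names were found among its 14918 genes. The table comes from RNA sequencing of macrophages from the livers of C57BL/6 mice, 3 on a high fat diet and 3 on a normal diet, with 1 library per mouse. Both diets ran for 18 weeks from an age of about 6 weeks, and the labels name no genetic change or other agent. The labels call the cells liver macrophages and do not say how they were isolated or which cells were removed. The comparison asks whether the lymphoid RNA in these libraries differed between the diets.

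NK cells are lymphocytes that kill stressed or infected cells without an antigen-specific receptor. In the mouse liver they sit in the sinusoids, next to Kupffer cells, together with ILC1, a tissue-resident relative. Activating receptors on the surface trigger the release of granules that hold perforin, which opens the target membrane, and granzymes, which enter and start cell death. IL-15, largely supplied by macrophages and dendritic cells, keeps them alive through the IL-2 and IL-15 receptor beta chain. Most of the 10 transcripts are also made by cytotoxic T cells, and Ccl5 by many other cells.

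Total counts lay between 17470439 and 23610956 per library. The members held between 40 and 2289 reads in a library. The lowest count, 40 reads of Eomes in high fat diet replicate 2, has an exact Poisson 95% interval of 28.6 to 54.5, which covers counting error only. Levels are given as CPM (read counts scaled to a common library size by TMM), and a log2 fold change is high fat minus normal diet. One library stood apart for these genes. It was normal diet replicate 3, with the highest CPM of all 6 libraries in 10 of 10 members, against 21.2% of the 14361 genes tested. For Klrk1 this was nearly a tie with normal diet replicate 1, at 77.7 and 77.5 CPM. Results of the members, and medians of the lists of NK, innate lymphoid and T cell genes, are given with and without normal diet replicate 3. Other genes are given with all 6 libraries only. In bulk RNA, fewer cells of a type and less RNA per cell cannot be told apart.

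The promoters of the members are described by their letters only. RefSeq promoters on GRCm38.p6, each from 250 bases before to 50 after a start site, were at hand for 8 members. RUNX factors are regulators of NK and cytotoxic T cell development, and their motif was searched as TGTGGT on both strands (ACCACA when read from the other strand). It occurred in 7 of these 8 promoters, all but that of Eomes, and in 16.8% of all 32851 promoters. The windows around it, read 5′ to 3′ on the strand of the gene with the motif in capitals, are as follows.
Gzmb, chr14:56262405-56262444, minus strand: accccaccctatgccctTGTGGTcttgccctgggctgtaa
Gzmb, chr14:56262346-56262385, minus strand: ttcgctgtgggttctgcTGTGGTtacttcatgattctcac
Gzma, chr13:113101009-113101048, minus strand: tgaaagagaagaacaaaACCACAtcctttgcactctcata
Prf1, chr10:61297689-61297728, plus strand: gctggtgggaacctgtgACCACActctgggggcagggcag
Ncr1, chr7:4337522-4337561, plus strand: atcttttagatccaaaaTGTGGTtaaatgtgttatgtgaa
Ncr1, chr7:4337657-4337696, plus strand: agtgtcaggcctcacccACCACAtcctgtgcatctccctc
Klrb1c, chr6:128788708-128788747, minus strand: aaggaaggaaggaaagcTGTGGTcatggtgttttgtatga
Klrk1, chr6:129623971-129624010, minus strand: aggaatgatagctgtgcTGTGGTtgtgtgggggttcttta
Nkg7, chr7:43437038-43437077, plus strand: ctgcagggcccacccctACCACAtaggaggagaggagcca

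The motif began between 34 and 176 bases upstream of the start site in the RefSeq table, the nearest being that of Gzmb. These distances depend on the start used. Against the gene models given with the values below, the table's start lay 74 bases farther upstream for Gzmb, 65 bases inside the gene for Nkg7 and 574 bases inside it for Klrb1c, and within 9 bases for Gzma, Klrk1, Ncr1 and Prf1. Klrk1, the member whose profile over the libraries lay farthest from the others, also held the motif. A link between the motif and the profiles was not tested. The T-box element AGGTGTGA, the recognition sequence of Eomes and T-bet, occurred in 1 of 8 promoters and in 1.28% of all promoters. Its shorter core GGTGTG, which lies inside the element, occurred in that same promoter and in 19% of all. That promoter is Nkg7, printed whole (chr7:43436888-43437187, plus strand, GRCm38.p6) with the RUNX motif and the T-box element in capitals.
Nkg7 promoter: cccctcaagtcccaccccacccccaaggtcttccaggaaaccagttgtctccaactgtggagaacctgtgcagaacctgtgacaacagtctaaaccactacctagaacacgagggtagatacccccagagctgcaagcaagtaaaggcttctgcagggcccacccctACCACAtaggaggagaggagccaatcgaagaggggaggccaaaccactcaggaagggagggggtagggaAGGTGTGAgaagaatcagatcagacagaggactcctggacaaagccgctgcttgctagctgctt
A match describes the letters in these windows and is not a bound site.

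No member passed the threshold between the diets. All 10 had a negative log2 fold change, with a median of -0.88, while the median over all genes tested was -0.00026. In edgeR's quasi-likelihood test 0 of 10 had an adjusted p under 0.05, where 0.634% of all genes did, and 1 of 10 (Klrk1) had an unadjusted p under 0.05, where 18.6% of all genes did. Lower calls made up 0.188% of all genes by adjusted p and 8.4% by unadjusted p. DESeq2 called 1 of 10, Klrk1, against 8.38% of all genes (3.32% lower, 5.06% higher). limma voom called 0 against 0.564% (0.181% lower, 0.383% higher). The libraries of the diets did not overlap in 1 member, Klrk1, against 25.3% of all genes (10.8% with the high fat diet lower). Without normal diet replicate 3 the negative members numbered 4 of 10, the median was 0.09, and edgeR called 0 of 10 against 0.151% of all genes (0.0275% lower), with 1 at an unadjusted p under 0.05. DESeq2 then called 0 of 10 against 7.95% (2.61% lower, 5.34% higher). In that comparison Klrk1 was the 1 member without overlap, against 35% of all genes. Leaving a library out cannot create an overlap, so for Klrk1 this outcome was fixed in advance.

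**Figure D1:**
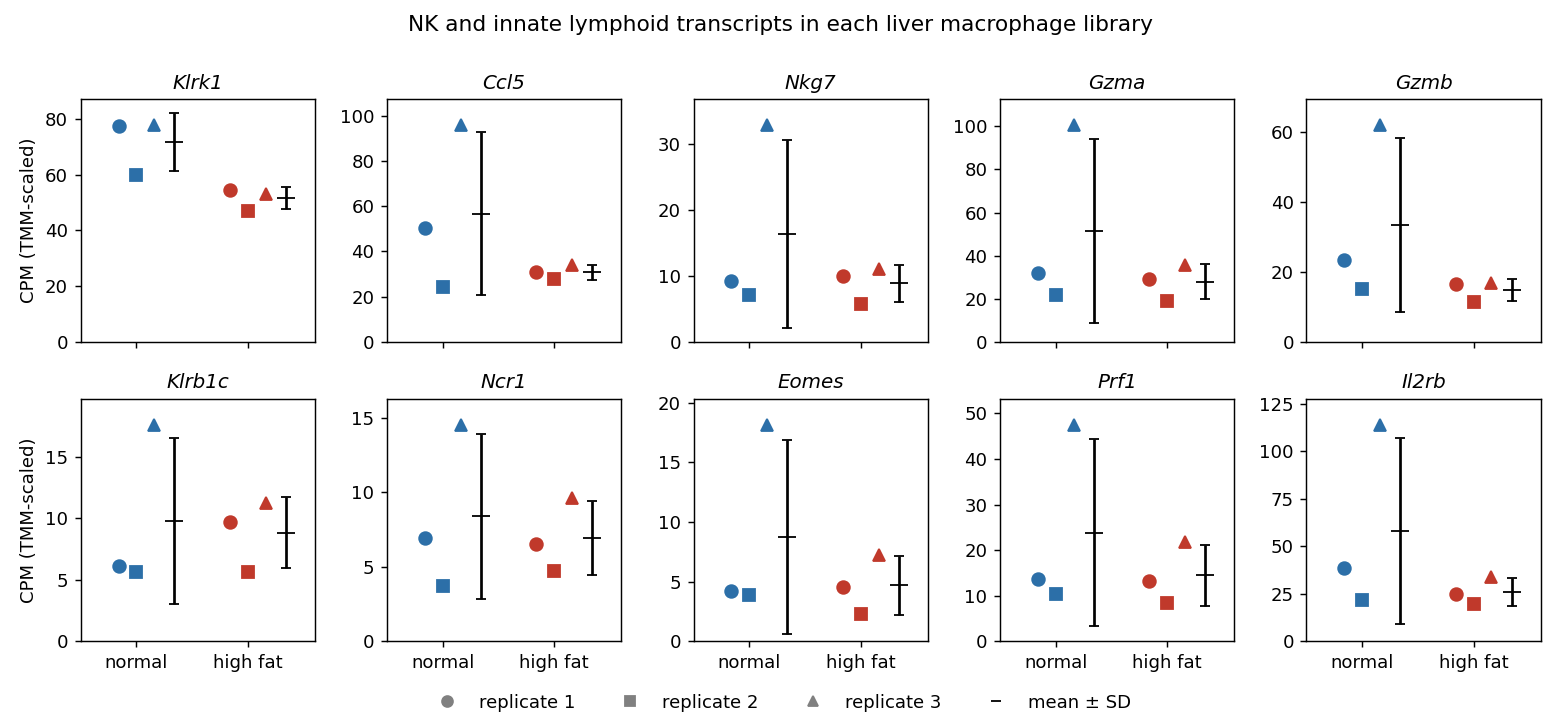
CPM of each of the 10 genes (vertical axes, starting at 0) in the 3 normal diet libraries (blue) and the 3 high fat diet libraries (red), with marker shapes for the replicates and black bars for mean ± SD. Normal diet replicate 3 (blue triangle) is the highest point in all 10 panels, though nearly level with replicate 1 for Klrk1. Only in Klrk1 do the diets not overlap.

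Klrk1 (NKG2D) is an activating receptor for stress-induced ligands, carried by NK cells and some T cells. It lies on chromosome 6, 129610323 to 129623864 (mm10, minus strand), in the NK gene complex. Its CPM was 77.5, 59.7 and 77.7 in normal diet replicates 1 to 3 and 54.5, 47.0 and 53.2 in high fat diet replicates 1 to 3. Every high fat diet library lay below every normal diet library. The means were 71.6 ± 10.3 and 51.6 ± 4.00 CPM (SD, n = 3), 1.39-fold lower on the high fat diet. The log2 fold change was -0.47 ± 0.12 (SE), which missed the threshold in edgeR (adjusted p = 0.121) and passed in DESeq2 (adjusted p = 0.0265). The DESeq2 call was lost in 5 of the 6 fits with a library left out (adjusted p between 0.112 and 0.211) and kept without normal diet replicate 2 (9.8e-06). In the authors' deposited table its adjusted p was 0.034, where 7.98% of genes had one under 0.05, and 3.02% had one and were lower. Leaving out normal diet replicate 3 left the log2 fold change at -0.41 ± 0.13 (SE, edgeR adjusted p = 0.203; DESeq2 0.114). Leaving out normal diet replicate 2 gave -0.60 ± 0.08 and a call (edgeR adjusted p = 0.0116), in a fit that called 9.44% of all genes, 5.9% lower and 3.54% higher.

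Klrb1c (NK1.1), the lectin-like receptor used to sort NK cells from C57BL/6 mice, is also on chromosome 6, at 128778485 to 128789215. Its CPM was 6.10, 5.63 and 17.6 in normal diet replicates 1 to 3 and 9.68, 5.61 and 11.2 in the high fat diet replicates. Replicate 3 alone was high on the normal diet, and the other two lay within the range of the high fat diet libraries. The log2 fold change was -0.14 ± 0.51 (SE, edgeR adjusted p = 0.908) and 0.59 ± 0.31 without normal diet replicate 3 (adjusted p = 0.407). Klrb1c has close paralogs, and its exons overlap those of 1 other gene model, Gm44511, on the same strand, so its reads are less certain.

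Ncr1 (NKp46), the activating receptor that marks NK cells and some other innate lymphoid cells across mammals, lies on chromosome 7, 4337724 to 4345164. Its CPM was 6.91, 3.74 and 14.5 with the normal diet against 6.53, 4.70 and 9.60 with the high fat diet, in replicate order. In both diets replicate 3 was the highest and replicate 2 the lowest. The log2 fold change was -0.27 ± 0.52 (SE, edgeR adjusted p = 0.82), and 0.39 ± 0.39 without normal diet replicate 3 (0.712).

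Il2rb (CD122), the beta chain through which IL-2 and IL-15 signal, lies on chromosome 15, 78480553 to 78495066. Its CPM was 38.4, 21.6 and 114 in the normal diet libraries and 25.0, 19.4 and 33.6 in the high fat diet libraries. Replicate 3 of the normal diet held 2.97 times the CPM of replicate 1 and 5.26 times that of replicate 2 of its own diet. Group means were 58.0 ± 49.1 and 26.0 ± 7.20 CPM (SD, n = 3), with a log2 fold change of -1.15 ± 0.61 (SE, edgeR adjusted p = 0.37). Without that library it was -0.21 ± 0.33 (adjusted p = 0.838).

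Eomes, the T-box factor that separates NK cells from Eomes-negative ILC1 in the mouse liver, lies on chromosome 9, 118478212 to 118486132. It was the member of lowest level per length, at a mean of 1.89 FPKM (fragments per kilobase of model, scaled for depth) over the 6 libraries. Its CPM was 4.19, 3.89 and 18.2 with the normal diet against 4.58, 2.26 and 7.20 with the high fat diet. The libraries of a diet varied more for Eomes than for any other member, with a coefficient of variation of 93.2% on the normal diet and 52.8% on the high fat diet. The medians over all genes tested were 15.0% and 9.65%. Its log2 fold change was -0.89 ± 0.72 (SE, edgeR adjusted p = 0.555), and 0.22 ± 0.47 without normal diet replicate 3 (0.886). An exon of Gm33460 overlaps Eomes on the opposite strand, and no strand-keeping step is named in the protocol.

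The granule proteins followed the same libraries. Gzma, a trypsin-like granzyme (chromosome 13, 113093825 to 113100979), stood at 31.9, 21.9 and 100.4 CPM in normal diet replicates 1 to 3 and at 29.0, 19.2 and 35.7 CPM in the high fat diet replicates. Gzmb, the granzyme that cleaves after aspartate and activates caspases (chromosome 14, 56258856 to 56262260), stood at 23.4, 15.1 and 61.7 CPM and at 16.5, 11.3 and 16.8 CPM. Prf1, perforin (chromosome 10, 61297836 to 61304263), stood at 13.6, 10.5 and 47.5 CPM and at 13.3, 8.38 and 21.7 CPM. In each of these genes normal diet replicate 3 exceeded every other library, and the other two normal diet libraries lay within the high fat diet range, except replicate 1 of Gzmb, which lay above it. Their log2 fold changes were -0.88 ± 0.59 for Gzma, -1.17 ± 0.53 for Gzmb and -0.72 ± 0.65 for Prf1 (SE, edgeR adjusted p = 0.477, 0.3 and 0.6). Without normal diet replicate 3 they were 0.06 ± 0.30, -0.37 ± 0.26 and 0.27 ± 0.41 (0.96, 0.551 and 0.827). Gzmb has close relatives in a gene cluster, so some of its reads may be shared.

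Nkg7, a granule membrane protein needed for full degranulation (chromosome 7, 43437073 to 43438246), was at 9.23, 7.05 and 32.7 CPM with the normal diet against 9.96, 5.66 and 11 CPM with the high fat diet. Replicate 3 of the normal diet again stood alone, at 3.55 times replicate 1 and 4.64 times replicate 2. The log2 fold change was -0.88 ± 0.62 (SE, edgeR adjusted p = 0.501), and 0.13 ± 0.31 without that library (0.906). Ccl5 (RANTES), a chemokine that draws leukocytes into inflamed tissue, lies on chromosome 11, 83525778 to 83530518. Its CPM was 50.5, 24.1 and 95.8 with the normal diet against 30.7, 27.6 and 34.2 with the high fat diet. Here normal diet replicates 1 and 3 both exceeded the high fat diet libraries, and replicate 2 lay below them. The log2 fold change was -0.88 ± 0.46 (SE, edgeR adjusted p = 0.37), and -0.27 ± 0.31 without normal diet replicate 3 (0.756). When normal diet replicate 2 was left out, DESeq2 called Ccl5, Gzmb and Klrk1, 3 of 10 members against 17.2% of all genes (9.46% lower), where edgeR called only Klrk1.

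**Figure D2:**
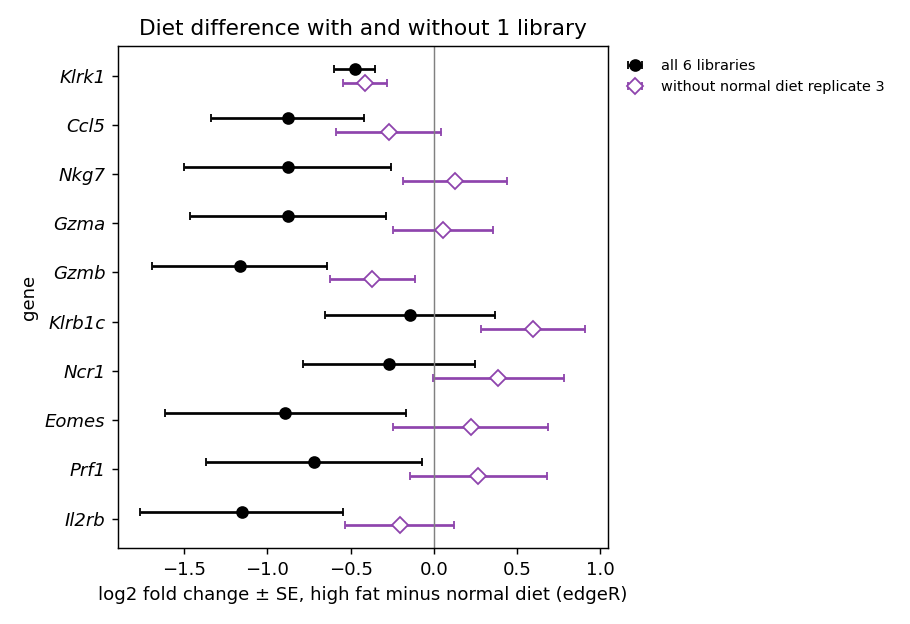
Log2 fold change ± SE (horizontal axis, high fat minus normal diet, edgeR) of each gene with all 6 libraries (black circles) and without normal diet replicate 3 (open diamonds). All 10 circles lie below 0, and 6 of the 10 diamonds lie above it, while Klrk1 moves from -0.47 to -0.41.

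Per length, Ccl5 had the highest level of the members, at a mean of 65.5 FPKM over the 6 libraries, followed by Gzma at 45.2, Klrk1 at 19.2, Gzmb at 17, Il2rb at 15.6 and Nkg7 at 14.4 FPKM. Prf1 at 9.34, Ncr1 at 5.13, Klrb1c at 3.55 and Eomes at 1.89 FPKM were lower. Neighbours in this order overlapped in their ranges over the libraries, which rose and fell together. Within libraries, 6 of the 9 neighbouring pairs kept their order in all 6. The order switched between Klrk1 and Gzmb (5 of 6 libraries in the order of the means), Gzmb and Il2rb (5 of 6) and Il2rb and Nkg7 (4 of 6). The 2 surface receptors most used to identify NK cells, Klrb1c and Ncr1, ranged from 2.13 to 6.75 and from 2.48 to 9.77 FPKM.

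The order of the libraries was shared by the members. Within the normal diet, replicate 3 was the highest and replicate 2 the lowest in 10 of 10 members, and within the high fat diet, replicate 2 was the lowest in 10 of 10. This combined order was taken from the members' own values, so their count was fixed in advance. It was found in 7.53% of all genes tested, which tells how common it was and is no test. Klrk1 was counted although its normal diet replicates 1 and 3 were nearly level. Replicate 3 was the highest high fat diet library in 9 of 10, the exception being Klrk1. On the normal diet the coefficient of variation lay between 63.8% (Ccl5) and 93.2% (Eomes) for the other nine, and at 14.4% for Klrk1. To compare shapes, each gene's log2 CPM was centred on its mean over the 6 libraries, and the root mean square distance to the mean profile of the other members was taken. It was 0.59 for Klrk1 and between 0.11 (Gzma) and 0.34 (Eomes) for the rest. The mean profile over the 10 members was 1.36 in normal diet replicate 3 and -0.74 in high fat diet replicate 2, with the remaining libraries between -0.54 and 0.13.

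**Figure D3:**
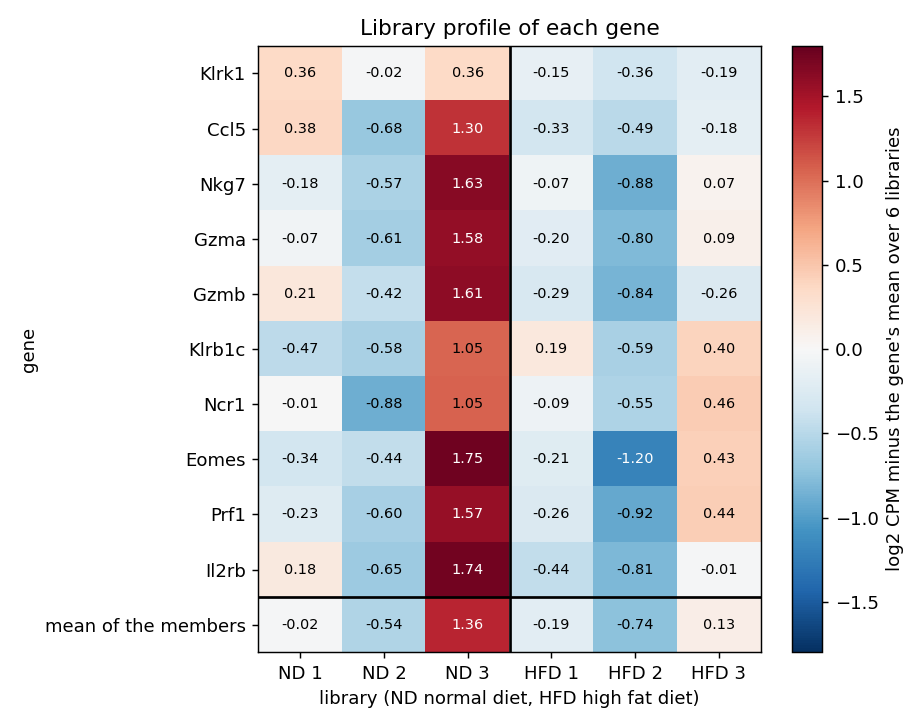
Log2 CPM minus the gene's own mean over 6 libraries (colour and printed value) for each gene (rows) in each library (columns, ND normal diet, HFD high fat diet), with the mean profile in the bottom row. Normal diet replicate 3 reaches between 1.05 and 1.75 in the rows other than Klrk1, which stands at 0.36 there.

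Among the 10529 other genes averaging 5 CPM or more, the 5 closest to the members' mean profile over the 6 libraries were Adamts14, Tmem88, Klra8, Klre1 and Sh2d2a. Their root mean square differences from it lay between 0.09 and 0.17 log2 units. Klra8 (Ly49H) and Klre1 are receptors of NK cells, and Sh2d2a encodes an adaptor of T and NK cells. Klra8 was at 4.99, 4.21 and 16.4 CPM in normal diet replicates 1 to 3 and 5.67, 4.08 and 7.79 CPM in the high fat diet replicates. Adamts14, a procollagen-processing protease, was at 10.5, 7.95 and 33.6 CPM and at 11.1, 7.19 and 12.6 CPM. None of the 5 passed between the diets (edgeR adjusted p between 0.37 and 0.658).

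Ratios between members do not depend on library scaling, and were examined after the values had been seen. Of the 45 pairs of members, the ratio did not overlap between the diets in 10, or 22.2%, against 29% of all pairs of genes at 5 CPM or more, so the members did not stand above that background. Reads of Gzmb per read of Klrb1c were 3.84, 2.67 and 3.51 in normal diet replicates 1 to 3 and 1.70, 2.01 and 1.5 in the high fat diet replicates. Per read of Ncr1, Gzmb was at 3.39, 4.03 and 4.25 and at 2.53, 2.40 and 1.75. In both ratios every high fat diet library was lower than every normal diet library, and the mean log2 ratio differed by -0.94 and -0.82. These pairs were picked because they did not overlap, so no test is given for them.

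NK receptors and adaptors other than the members were read next. The counts of this list and of those below stand beside the same shares over all genes. In edgeR 18.6% had an unadjusted p under 0.05, and 8.4% had one and were lower. By adjusted p, DESeq2 called 3.32% lower and 5.06% higher, and limma voom 0.181% lower and 0.383% higher. Of 27 tested, 0 passed in edgeR in either direction (background 0.634%; 1 higher and none lower at an unadjusted p under 0.05; 1 in DESeq2, the SAP-family adaptor Sh2d1b2, higher on the high fat diet; 0 in limma voom), and the median log2 fold change was -0.47. The highest library was normal diet replicate 3 in 22 of the 27. Without it the median was 0.01. The NKG2 and CD94 receptor subunits Klrc1 and Klrd1 had log2 fold changes of 0.12 ± 0.30 and -0.22 ± 0.39 (SE). Hcst (DAP10), the adaptor of Klrk1, stood at 10.7 ± 2.99 CPM with the normal diet against 8.24 ± 0.83 CPM with the high fat diet (SD, n = 3), and its highest library was normal diet replicate 2. The most abundant entries were Tyrobp (DAP12), at 634 ± 80.5 and 617 ± 22.4 CPM, and the Fc receptor Fcgr3, at 533 ± 149 and 511 ± 25.8 CPM, both also macrophage genes.

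Of 13 further cytotoxic granule genes tested, 0 passed in edgeR (2 lower by unadjusted p; by DESeq2 1 lower; by limma voom 0), with a median of -0.20. Leaving out normal diet replicate 3 moved that median to -0.05. The list's most abundant entries, the cathepsin Ctsc that activates granzymes and the lysosomal protein Lamp1, had log2 fold changes of -0.07 ± 0.13 and 0.02 ± 0.13 (SE). The DESeq2 call was Serpinb9, the granzyme B inhibitor that protects killer cells and their neighbours. It was at 76.0, 47.0 and 101 CPM in normal diet replicates 1 to 3 and 32.9, 36.9 and 42.6 CPM in the high fat diet replicates, with no overlap (log2 fold change -1.0 ± 0.28, SE; edgeR adjusted p = 0.144, DESeq2 0.00681).

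Of 19 transcription factors of NK cells and innate lymphoid cells, 0 passed in edgeR (1 higher, 1 lower by unadjusted p; by DESeq2 1 higher and 1 lower; by limma voom 0), with a median of -0.27. This median was -0.099 without normal diet replicate 3. Tbx21 (T-bet), the partner of Eomes, was at 6.31, 5.0 and 18.4 CPM with the normal diet against 4.48, 3.11 and 5.73 CPM with the high fat diet, again highest in normal diet replicate 3. Runx3 was at 87.2, 31.9 and 93.0 CPM and at 40.4, 45.0 and 54.4 CPM, with a log2 fold change of -0.60 ± 0.39 (SE, edgeR adjusted p = 0.465). Klf2, which controls lymphocyte exit from tissue and is abundant in endothelium, was at 805 ± 95.2 and 552 ± 49.6 CPM (SD over 3 libraries; in edgeR, adjusted p = 0.0923, DESeq2 0.00278), and Zeb2, a factor of mature NK cells and of macrophages, had a log2 fold change of 0.11 ± 0.11 (SE).

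Markers of ILC1, ILC2 and ILC3 gave 0 of 12 tested in edgeR (3 higher by unadjusted p; by DESeq2 1 higher; by limma voom 0), with a median of -0.01. Dropping normal diet replicate 3 gave a median of 0.20. The ILC1 markers Itga1 (CD49a) and Tnfsf10 (TRAIL) stood at 32.5 ± 14.8 and 23.2 ± 9.94 CPM with the normal diet against 24.7 ± 5.20 and 20.2 ± 1.27 CPM with the high fat diet (SD, n = 3). Both genes are also expressed by other liver cells. Cxcr6 was at most 2.14 CPM and Zfp683 (Hobit) at most 0.91 CPM in any library. Cd200r1, a receptor of ILC1 and myeloid cells, was at 21.5 ± 4.12 and 30.0 ± 1.64 CPM (SD over 3 libraries; in edgeR, adjusted p = 0.155).

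Ifng, the main NK cytokine that activates macrophages, was at 9.69, 3.79 and 21.6 CPM in normal diet replicates 1 to 3 and 3.15, 2.49 and 4.42 CPM in the high fat diet replicates. Its log2 fold change was -1.79 ± 0.63 (SE, edgeR adjusted p = 0.207, DESeq2 0.0221), and the diets overlapped. Xcl1, a chemokine that draws cross-presenting dendritic cells, was at 5.15, 2.74 and 14.7 CPM and at 3.62, 1.81 and 3.58 CPM. Over 14 chemokines, cytokines and homing receptors 0 passed in edgeR (3 higher, 1 lower by unadjusted p; by DESeq2 3 higher and 1 lower; by limma voom 1), with a median of -0.01. The 3 higher in DESeq2, where 5.06% of all genes were called higher, were Cx3cr1, Ccr2 and Cxcr4, which monocytes also carry. The median of this list was 0.04 without normal diet replicate 3. Ccr2, one of the most abundant entries, had a log2 fold change of 1.16 ± 0.32 (SE, edgeR adjusted p = 0.144).

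Among 20 genes of IL-2, IL-15, IL-12 and IL-18 signalling 0 passed in edgeR (1 higher, 5 lower by unadjusted p; by DESeq2 2 lower; by limma voom 0), with a median of -0.27. Over all genes 8.4% were lower by unadjusted p and 3.32% in DESeq2. The list's median was -0.06 without normal diet replicate 3. Il12b, the p40 subunit that macrophages and dendritic cells secrete to drive NK interferon gamma, was at 20.3, 9.05 and 11.8 CPM with the normal diet against 3.10, 4.81 and 2.95 CPM with the high fat diet. Its highest library was normal diet replicate 1, not replicate 3, and the diets did not overlap (log2 fold change -1.93 ± 0.36, SE; edgeR adjusted p = 0.0676, DESeq2 1.84e-05). Il27, a related myeloid cytokine, was at 12.3, 9.63 and 11.9 CPM and at 6.77, 5.78 and 4.84 CPM (edgeR adjusted p = 0.0725, DESeq2 0.00055). Il15 stood at 35.1 ± 2.48 and 29.3 ± 2.09 CPM and Il18 at 37.2 ± 7.52 and 52.0 ± 5.71 CPM (SD over 3 libraries; in edgeR, adjusted p = 0.209 and 0.19). The most abundant entries, the IL-18 decoy Il18bp and the kinase Jak1, had log2 fold changes of -0.19 ± 0.14 and -0.16 ± 0.14 (SE).

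Of 8 tested ligands of NK receptors 0 passed in edgeR (1 lower by unadjusted p; by DESeq2 1 lower; by limma voom 0), with a median of -0.37. The call in DESeq2 was H2-T23 (Qa-1), the class Ib molecule read by the Klrc1 receptor, at 741, 585 and 744 CPM with the normal diet against 454, 427 and 432 CPM with the high fat diet (log2 fold change -0.66 ± 0.12, SE; edgeR adjusted p = 0.0657, DESeq2 3.31e-05). As a class I gene with close relatives its reads may be shared. Its high fat diet libraries all lay below the normal diet libraries, as those of Klrk1 did and as in 10.8% of all genes. Replicates 1 and 3 of the normal diet were level. For the 8 ligands the median was -0.25 without normal diet replicate 3. The Klrk1 ligands Raet1d and Ulbp1 had log2 fold changes of -0.49 ± 0.48 and 0.08 ± 0.17 (SE). Cd48, the ligand of the receptor CD244, had 0.20 ± 0.11.

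Markers of other cells were read in the same libraries. Of 13 tested T cell markers 0 passed in edgeR (1 higher, 2 lower by unadjusted p; by DESeq2 2 lower; by limma voom 0), and normal diet replicate 3 was the highest library in 10. Their median log2 fold change was -0.55, with 10 of 13 negative. Without that library it was 0.04, where 14 were tested. The median of the NK members moved likewise, from -0.88 to 0.09. The summed T cell level over 16 genes in the table lay between 71.8 and 103 CPM on the normal diet and between 74.9 and 85.7 CPM on the high fat diet, highest in normal diet replicate 3. Icos, its largest part, held 25.6, 36.8 and 23.9 CPM in normal diet replicates 1 to 3, lowest in replicate 3. In the high fat diet replicates Icos held 41.7, 53.4 and 38.9 CPM. The sum thus understates how far the other entries together stood higher in normal diet replicate 3. Cd3g was between 0.42 and 1.13 CPM, and Trbc1 was at 2.88, 1.74 and 7.41 CPM in normal diet replicates 1 to 3 and 3.53, 1.81 and 3.20 CPM in the high fat diet replicates. The most abundant entries of the list, Icos and Cd4, had log2 fold changes of 0.63 ± 0.20 and -0.83 ± 0.20 (SE). Their adjusted p was 0.169 and 0.11 by edgeR, and 0.0675 and 0.0079 by DESeq2. Neither was highest in normal diet replicate 3. The other lower call of DESeq2 was Cd5 (adjusted p = 0.021). Cd5 stood at 1.79 ± 0.64 CPM with the normal diet against 0.43 ± 0.26 CPM with the high fat diet (SD, n = 3). DESeq2 called 3.32% of all genes lower. The summed members were at 262, 173 and 580 CPM with the normal diet against 200, 151 and 234 CPM with the high fat diet. The part of T cells in the members' values was not tested.

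Kupffer cell and macrophage markers, summed over 14 genes, stood at 36958, 46042 and 30022 CPM in normal diet replicates 1 to 3 and 36017, 39462 and 33490 CPM in the high fat diet replicates. Within each diet, the library with the lowest macrophage sum had the highest summed member level, and the one with the highest macrophage sum had the lowest. With 3 libraries a diet, a link between the sums was not tested. Of the 14, Itgam alone passed in edgeR, higher (log2 fold change 0.69 ± 0.09, SE, adjusted p = 0.042), as it did alone in DESeq2 and by unadjusted p, and the median was -0.07. B cell markers, 0 of 9 in edgeR (1 higher by unadjusted p; by DESeq2 1; by limma voom 0), summed to between 256 and 331 CPM with the normal diet against 278 and 336 CPM with the high fat diet, and normal diet replicate 3 was the highest in none of them. Their most abundant entries, Ighm and Cd22, had log2 fold changes of 0.08 ± 0.22 and 0.13 ± 0.13 (SE). DESeq2 called Cd79b higher, at 10.3 ± 2.67 CPM with the normal diet against 18.2 ± 0.45 CPM with the high fat diet (SD, n = 3). Its adjusted p was 0.00688 by DESeq2 and 0.0971 by edgeR. Over all genes DESeq2 called 5.06% higher.

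Hepatocyte markers summed to 602, 2813 and 2462 CPM in normal diet replicates 1 to 3 and 8742, 5284 and 5267 CPM in the high fat diet replicates, with 1 of 14 called higher in edgeR, Cyp3a11 (log2 fold change 3.27 ± 0.44, SE, adjusted p = 0.0441; over all genes 0.446% were called higher). By unadjusted p 10 were higher and by DESeq2 7, with none lower. Neutrophil markers summed to between 231 and 316 CPM and between 322 and 374 CPM, with 3 of 11 called higher, S100a9, S100a8 and Mmp8 (log2 fold changes of 2.98, 2.52 and 2.63; edgeR adjusted p = 0.0351, 0.0351 and 0.043). DESeq2 called 7 higher and 1 lower, and by unadjusted p 8 were higher and 1 lower. For both lists the shares over all genes were 5.06% higher and 3.32% lower in DESeq2. By unadjusted p 18.6% of all genes passed, 8.4% lower. Among the neutrophil markers 1 gene went against the others. The lower one was Il1r2, a decoy receptor for IL-1, at 74.4 ± 42.6 CPM with the normal diet against 25.7 ± 5.89 CPM with the high fat diet (SD over 3 libraries; log2 fold change -1.53, DESeq2 adjusted p = 0.0115, edgeR 0.19). Mmp9 had a log2 fold change of -0.06 ± 0.22 (SE). Both sums separated the diets, and normal diet replicate 3 was not the highest of all 6 libraries for any gene of either list. Within the normal diet it was the highest in 9 of 11 neutrophil and 4 of 14 hepatocyte markers. Csf3r, the largest part of the neutrophil sum, was at 171 ± 11.9 and 202 ± 4.91 CPM with the normal and high fat diet (SD, n = 3). The neutrophil sum thus shows less than the fold changes of S100a8 and S100a9. The part of hepatocytes and neutrophils in the diet difference of Klrk1 was not tested.

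**Figure D4:**
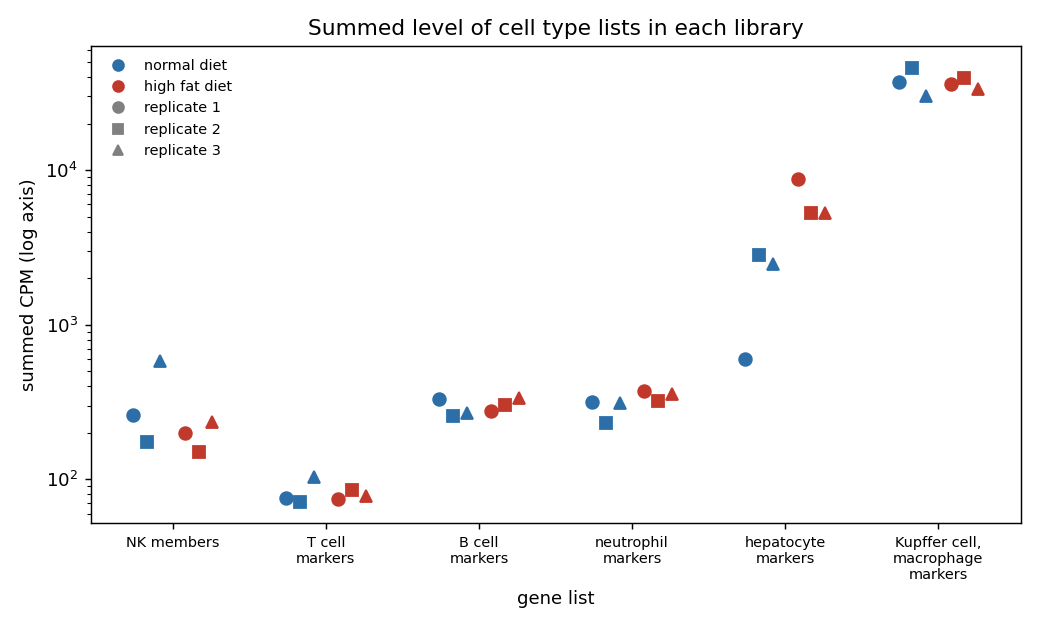
Summed CPM (vertical log axis) of the 10 NK genes and of 5 marker lists in each library, blue for the normal diet and red for the high fat diet, with marker shapes for the replicates. Normal diet replicate 3 (blue triangle) is the highest of the 6 libraries for the NK genes, at 580 CPM, and for T cell markers, at 103 CPM, and the lowest for Kupffer cell and macrophage markers, at 30022 CPM. Icos, the largest part of the T cell sum, is lowest in that library.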

How the data were processed

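Trizol RNA was enriched for mRNA with oligo(dT) and copied from random hexamers, per the labels' protocols. The submitters' processing notes name mm10 and the tools featureCounts, HISAT2, STAR, StringTie, DESeq, edgeR and STAR-Fusion; their versions and roles, and how strand and multi-mapped reads were treated, are not given. The authors deposited 1 table with raw counts per gene, a signal per gene that equals the counts divided by 1 size factor per library (not used further), FPKM, and their own log2 fold change, p-value and adjusted p-value.

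Counts were tested with edgeR 4.0.16 in R 4.3.3: TMM scaling, the default low-count filter (14361 of 14918 genes, all 10 members among them), robust quasi-likelihood fit, and Benjamini-Hochberg adjustment over all genes tested, with a threshold of 0.05. The SE was taken as |log2 fold change| over the root of F. FPKM were used only to compare levels between genes. The script was tested on simulated data. No library repeated another: within a diet, chi-square over its degrees of freedom ran from 13.7 to 72.4.

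The members and the 12 other gene lists were chosen with earlier results of these data known. Named genes are all members, the genes of each list past the threshold (otherwise its 2 most abundant), and the 5 most alike in profile. Some genes of these lists are not reported here by name. Other genes named, and the ratios of members, were chosen after their values were seen. Symbols came from GENCODE M21 by Ensembl ID (14842 matched). Alternatives were other scalings and filters, DESeq2 1.42.0, limma 3.58.1 voom, and each library left out. DESeq2 with each library left out was added after seeing the data.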

Additional observations from a re-analysis of the deposited data

How the results depend on the processing

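No paired analysis was possible because the labels give each mouse a number of its own, which no mouse of the other diet shares. In edgeR 0 members passed under total-count, median-ratio or upper-quartile scaling, without a low-count filter and with one of 5 CPM in 3 libraries (9 members tested, Eomes dropped), and 0 in limma voom. DESeq2 called 1. With a library left out, edgeR called between 0 and 1 and DESeq2 between 0 and 3. Over all genes 91 passed in edgeR and 1204 in DESeq2, and between 0 and 1385 in edgeR with a library left out. The 0 arose when high fat diet replicate 2 or normal diet replicate 1 was dropped, where 1962 and 2002 genes had an unadjusted p under 0.05, and the 1385 when normal diet replicate 2 was dropped. DESeq2 called 537, 750 and 746 without high fat diet replicates 1, 2 and 3, and 832, 2529 and 1158 without those of the normal diet. Of the genes on the other lists 5 passed in edgeR, 30 in DESeq2 and between 0 and 27 in edgeR with a library left out; DESeq2 gave 17, 18 and 24, then 26, 54 and 29, in the same order of libraries.

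The sign of 6 members turned without normal diet replicate 3, and the cause was not tested. Then 4 of 10 were negative in edgeR and in DESeq2, and the median was 0.0919 in edgeR and 0.0732 in DESeq2; over the left-out libraries it ran from -1.24 to 0.0919 in edgeR. The log2 fold changes without that library, in edgeR and then DESeq2, were 0.127 and 0.109 for Nkg7, 0.0565 and 0.0375 for Gzma, 0.595 and 0.577 for Klrb1c, 0.387 and 0.367 for Ncr1, 0.221 and 0.199 for Eomes, and 0.267 and 0.247 for Prf1. The lowest edgeR values with a library left out were -1.24 for Nkg7, -1.25 for Gzma, -0.426 for Klrb1c, -0.629 for Ncr1, -1.35 for Eomes and -1.14 for Prf1. Klrb1c was also positive without high fat diet replicate 2 (0.098 in edgeR, 0.0998 in DESeq2) and in limma voom (0.0365). With 3 mice a group and this spread, a missed threshold does not show equal levels.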
